A study of Mus musculus with 1931 samples.

Results

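Amino acid transporters of 7 solute carrier families, Slc1a, Slc3a, Slc6a, Slc7a, Slc36a, Slc38a and Slc43a, were examined in single cells of mouse RtL-embryoids and of 2D cultures. Members were found by symbol, as genes of the table that carry a family prefix followed by a number, which gave 59 of 20999 genes after 1 was left out. By role they were 7 Slc1a members, 2 Slc3a heavy chains, 5 cationic Slc7a transporters, 10 Slc7a light chains, 4 Slc36a, 10 Slc38a, 3 Slc43a and 18 Slc6a members.

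RtL-embryoids were assembled in agarose microwells from Kermit ESCs with an Oct3/4 GFP reporter, 5-Factor ESCs with inducible Cdx2, Tfap2c, Eomes, Gata3 and Ets2 transgenes, and mCherry-labelled iGATA6 ESCs with an inducible Gata6 transgene. The transgenes were induced with 2 µg/ml doxycycline, which was withdrawn before the sort, and all embryoids were pooled, dissociated and sorted by GFP, mCherry or CD40 into plates 3, 4 and 5. The 2D cultures were Kermit ESCs in 2i/LIF on plate 7, for which the labels list no doxycycline. The others were iTSCs made from the 5-Factor line on plate 8 and iXEN cells made from the iGATA6 line on plate 9. Both were induced with 2 µg/ml doxycycline, which was also withdrawn before the sort. ESCs, iTSCs and iXEN cells were sorted by GFP, CD40 and mCherry. The pool and each culture stand as a single sample, and plates 3, 4 and 5 only split that pool, so no difference between groups could be tested and values are given per plate instead. A minimum of 2500 detected genes left 1406 of 1931 wells, 982 from the pool and 424 from the cultures, and levels are transcripts per 10000 (TP10k), the deposited TPM of a cell scaled to a sum of 10000.

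The labels do not give the lineage of a 3D well, and the blocks of columns 1 to 8, 9 to 16 and 17 to 24 were named from markers. All 7 Epi markers, such as Pou5f1 and Nanog, had their highest 3D mean in columns 1 to 8, all 7 VE markers in columns 9 to 16 and all 6 ExE markers in columns 17 to 24, and the blocks are called Epi-like, VE-like and ExE-like, with 31.98%, 32.1% and 35.9% of the 982 cells. Cdx2, Eomes and Tfap2c of the ExE list are also transgenes of the 5-Factor line. The ExE-like block was mixed, since the ExE list was the highest of the 3 marker lists in 68.6% of its cells, the VE list in 63 cells and the Epi list in 48. The VE-like block and the iXEN cells also held parietal endoderm markers, with sums of 85.7 and 134.3 TP10k against 1.44 in the Epi-like block and 5.88 in the ExE-like block, and 6 of these 7 markers were above 0.05 TP10k in each. Of the VE-like sum, Sparc alone made up 59.9 TP10k. In 3D 5 of the 7 had their highest mean in the VE-like block. The other 2, Plat and Thbd, were highest in the ExE-like block, where Plat was at 0.581 against 0.527 TP10k. Only 2 of the 7 were below 0.05 TP10k in the ExE-like block. All 6 fibroblast markers were below 0.05 TP10k in every group, and Hand1 was the only one of 5 trophoblast giant cell markers above that level, in the ExE-like block and the iTSCs. The median number of genes per cell was 4823, 5348 and 5396 in the 3D blocks, and 9093.5 in ESCs, 8699 in iXEN cells and 8537 in iTSCs, which made up 33.5%, 33.3% and 33.3% of the 424 cells in 2D.

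Amino acid transporters carry amino acids and related solutes across the plasma membrane and the lysosomal membrane. Slc7a light chains reach the cell surface as disulfide-linked heteromers with a heavy chain, Slc3a2 (CD98hc, also 4F2hc) or Slc3a1 (rBAT), and exchange one amino acid for another. Several Slc1a and Slc38a members draw on the sodium gradient to concentrate amino acids, whereas Slc1a5 is an exchanger and Slc38a7 a lysosomal exporter. Slc7a1 to Slc7a3 admit arginine and lysine without a heavy chain, and Slc36a members are proton-coupled. Visceral endoderm takes up and degrades maternal material for the early embryo, and embryonic stem cells depend on amino acid supply.

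By the Gencode vM21 annotation of GRCm38, Slc3a2 lies on chromosome 19 (8706882 to 8723369, minus strand), Slc7a3 on chromosome X (101079210 to 101086020, minus strand), Slc7a6 on chromosome 8 (106168857 to 106198706, plus strand) and Slc7a7 on chromosome 14 (54369442 to 54417780, minus strand). Promoter windows from RefSeq (GRCm38.p6; 250 bases before to 50 after a transcript start) were found for 41 of the 59 members, in 60 windows. Of these 4 are shown, because Slc7a6 and Slc7a9 separated the VE-like block from the others, Slc7a7 separated the Epi-like block from ESCs, and Slc36a1, a lysosomal transporter, holds the lysosomal motif. Where a gene had more than 1 window, the window with the most matches to the 4 motifs was taken. Slc7a6 and Slc7a9 had 2 windows each, Slc7a7 had 5 and Slc36a1 had 1. The windows are written 5′ to 3′ on the strand of the gene, and capitals mark matches to 1 of 4 motifs searched on both strands. Slc7a6 lies at chr8:106168604-106168903, plus strand, Slc7a9 at chr7:35448842-35449141, plus strand, Slc36a1 at chr11:55204090-55204389, plus strand, and Slc7a7 at chr14:54417895-54418194, minus strand.
Slc7a6: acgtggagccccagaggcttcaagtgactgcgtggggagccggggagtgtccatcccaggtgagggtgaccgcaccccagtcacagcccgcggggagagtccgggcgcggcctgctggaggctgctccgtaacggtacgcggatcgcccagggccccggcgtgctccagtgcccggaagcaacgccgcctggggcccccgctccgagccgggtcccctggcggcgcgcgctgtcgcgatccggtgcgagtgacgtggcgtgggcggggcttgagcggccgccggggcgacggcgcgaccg
Slc7a9: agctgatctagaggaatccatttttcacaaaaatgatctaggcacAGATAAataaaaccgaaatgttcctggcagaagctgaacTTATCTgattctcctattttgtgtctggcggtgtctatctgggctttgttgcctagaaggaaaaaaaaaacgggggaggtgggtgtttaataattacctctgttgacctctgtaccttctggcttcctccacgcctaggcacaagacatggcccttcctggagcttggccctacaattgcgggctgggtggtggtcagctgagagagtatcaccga
Slc36a1: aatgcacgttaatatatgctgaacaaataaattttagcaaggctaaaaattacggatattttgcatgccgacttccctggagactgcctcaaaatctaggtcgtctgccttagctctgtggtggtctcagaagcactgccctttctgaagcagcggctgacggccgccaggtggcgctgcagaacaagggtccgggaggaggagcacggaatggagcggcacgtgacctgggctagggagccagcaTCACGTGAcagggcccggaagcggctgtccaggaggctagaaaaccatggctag
Slc7a7: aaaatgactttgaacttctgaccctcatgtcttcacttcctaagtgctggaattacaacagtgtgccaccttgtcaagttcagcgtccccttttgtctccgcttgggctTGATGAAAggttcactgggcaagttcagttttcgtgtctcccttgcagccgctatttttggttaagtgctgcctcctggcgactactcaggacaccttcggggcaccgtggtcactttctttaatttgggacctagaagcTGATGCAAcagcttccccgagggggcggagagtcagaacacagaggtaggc

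The Slc7a9 window holds a pair of GATA matches (AGATAA), from base 46 and, on the other strand, from base 85 of the window. AGATAA was present in 11.2% of all 32851 windows and in 4 of the 60 member windows, which belong to 3 members, Slc3a1, Slc7a7 and Slc7a9. The Slc7a7 window holds 2 matches to the amino acid response element, TGATGNAA, from bases 110 and 250. That motif was in 3.97% of all windows and in 5 of the 60 member windows, which belong to 4 members, Slc1a4, Slc6a21, Slc7a7 and Slc7a11. The CLEAR element TCACGTGA, known from lysosomal genes, was in 0.974% of all windows and, of the members, in the Slc36a1 window, across the start site. The octamer ATGCAAAT was in 1.74% of all windows and in 2 of the 60 member windows, of Slc6a12 and Slc7a11. In the Slc7a11 window it overlaps an amino acid response element match, and the Slc7a6 window held none of the motifs. Slc7a6, Slc7a9 and Slc7a7 have further windows for other starts, and these matches are descriptions of letters only.

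Of the 59 members, 30 reached a mean of 0.05 TP10k in at least 1 group and 19 reached 0.2 TP10k. The other 29 stayed below 0.05 TP10k in every group, at up to 0.0439 TP10k. They were Slc1a2, Slc1a6, Slc1a7, Slc3a1, Slc6a2, Slc6a3, Slc6a4, Slc6a5, Slc6a7, Slc6a11, Slc6a12, Slc6a13, Slc6a14, Slc6a17, Slc6a18, Slc6a19, Slc6a21, Slc7a2, Slc7a10, Slc7a11, Slc7a12, Slc7a13, Slc7a14, Slc7a15, Slc36a2, Slc36a3, Slc36a4, Slc38a8 and Slc38a11. Slc7a11, the cystine and glutamate exchanger, was above 0 in 89.4% of the ESCs yet had a mean of only 0.0221 TP10k there, and in the Epi-like block it was above 0 in 30.6% of cells at 0.0297 TP10k. Its longest annotated transcript has 9223 bases, and whether transcript length or depth bears on these shares was not tested. Shares of cells above 0 are described only, and they rank neither genes nor groups of unequal depth. Slc6a9, Slc38a9 and Slc43a1 passed 0.05 TP10k, with means between 0.0348 and 0.187 TP10k over the 6 groups, and were called in no comparison.

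The summed level of all members was highest in the VE-like block, at 26.9 TP10k, with 27.5, 26.6 and 26.6 on plates 3, 4 and 5. It was 21.3 TP10k in the Epi-like block, with plates at 21.1, 20.8 and 21.9, and 18.5 in the ExE-like block, with plates at 18.3, 19.8 and 17.4. The plate values of the 3 blocks did not overlap. In 2D iXEN cells were also highest at 24.2 TP10k, ahead of iTSCs at 13.6 and ESCs at 11.6, so that the order of the other lineages was not that of 3D. Among the 30 members above 0.05 TP10k, 19 had their highest 3D mean in the VE-like block, 7 in the Epi-like block and 4 in the ExE-like block. In 2D 21 were highest in iXEN cells, 5 in ESCs and 4 in iTSCs, and for 21 of the 30 the same lineage was highest in 3D and in 2D. The same counts were not made over all genes, so whether these orders are particular to the members was not tested.

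**Figure D1:**
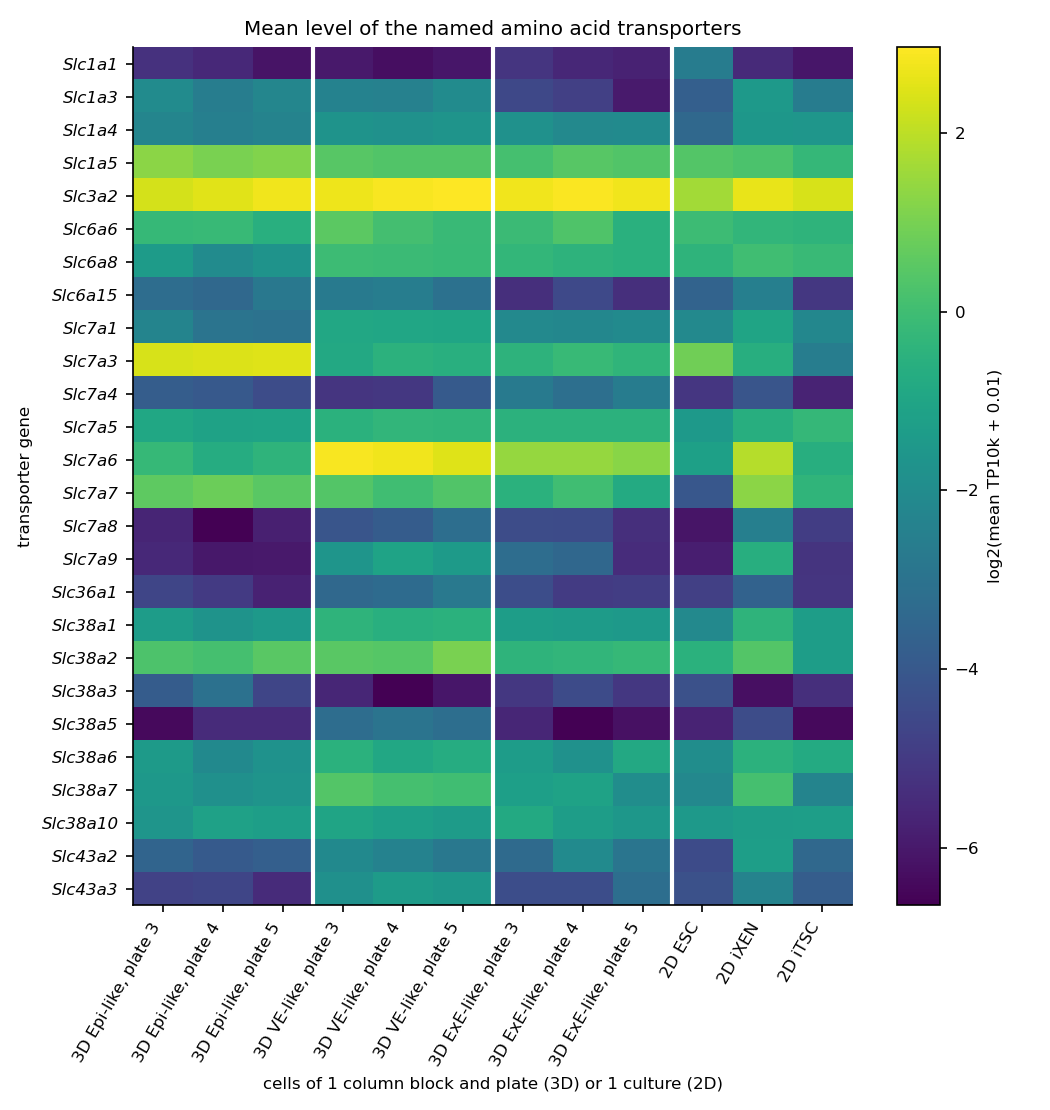
Mean level of the 26 members named with values, one per line, in the 3D blocks on plates 3, 4 and 5 and in the 2D cultures, as log2 of mean TP10k plus 0.01 (colour). Slc3a2 is bright throughout, Slc7a3 in the Epi-like columns and Slc7a6 in the VE-like columns and iXEN.

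Slc3a2, the heavy chain that brings several light chains to the membrane, ranked first of all members in each of the 6 groups. Its mean was 5.88 TP10k in the Epi-like block (plates 5.14, 5.79 and 6.68), 7.21 in the VE-like block (6.59, 7.33 and 7.79) and 6.94 in the ExE-like block (6.71, 7.42 and 6.68). The blocks overlapped between plates, and the log2 ratios between them lay between -0.29 and 0.06. In 2D it was 3.12 TP10k in ESCs, 6.25 in iXEN cells and 5.22 in iTSCs, and it was above 0 in at least 95.8% of the cells of every group. Slc3a1, the heavy chain of the kidney and gut cystine transporter, was at or below 0.0185 TP10k.

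The light chains set the groups apart more than their heavy chain. Slc7a6 (y+LAT2), which exchanges cationic for neutral amino acids, had a mean of 6.59 TP10k in the VE-like block, with 7.25, 6.79 and 5.61 on the plates. It was 0.733 TP10k in the Epi-like block, with 0.852, 0.607 and 0.745, and 2.59 in the ExE-like block, with 2.72, 2.69 and 2.36. No plate of one block reached the range of another. The quartiles of the VE-like cells were 3.48 and 8.64 TP10k and 98.4% were above 0 (95% exact interval 96.3 to 99.5, which covers the counting of cells only), whereas the Epi-like median was 0. In 2D its mean was 3.68 TP10k in iXEN cells, 0.636 in iTSCs and 0.425 in ESCs, so that iXEN cells were again the highest.

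Slc7a7 (y+LAT1), the other y+L exchanger, had a different order. Its mean was 1.53 TP10k in the Epi-like block (plates 1.47, 1.73 and 1.40), 1.19 in the VE-like block (1.31, 1.003 and 1.27) and 0.758 in the ExE-like block (0.699, 0.992 and 0.580). The VE-like and ExE-like plates nearly met, and the Epi-like plates were above all others. In 2D it ran from 0.0507 TP10k in ESCs, where 18.3% of cells were above 0, to 0.773 in iTSCs and 2.45 in iXEN cells, where 95.7% were. Its exons share bases, 6.998% of its exonic length, with Oxa1l on the opposite strand, and the sources do not say that strand was used in quantification.

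Slc7a5 (LAT1), which imports leucine and other large neutral amino acids, varied less. It had a mean of 0.476 TP10k in the Epi-like, 0.754 in the VE-like and 0.710 in the ExE-like block, and 0.344, 0.634 and 0.826 TP10k in ESCs, iXEN cells and iTSCs. Slc7a8 (LAT2) was weak, with 0.0684 TP10k in the VE-like block and 0.169 in iXEN cells, and at most 0.0295 elsewhere.

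Slc7a9 (b0,+AT), the light chain that pairs with Slc3a1 in kidney and gut, was found in the VE-like block at 0.379 TP10k, with 0.309, 0.463 and 0.367 on the plates. In the Epi-like block it was above 0 in 7 cells (2.23%), at a mean of 0.00739 TP10k, and in the VE-like block in 37.1%. The ExE-like block gave 0.0660 TP10k, with 0.0995, 0.0825 and 0.0131, but only 0.0148 in the cells in which the ExE markers were highest. In 2D it was above 0 in 79.4% of iXEN cells, at 0.646 TP10k, and at most 0.0175 TP10k in iTSCs and ESCs. Its usual partner Slc3a1 was at 0.0120 TP10k in the VE-like block and 0.00490 in iXEN cells.

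**Figure D2:**
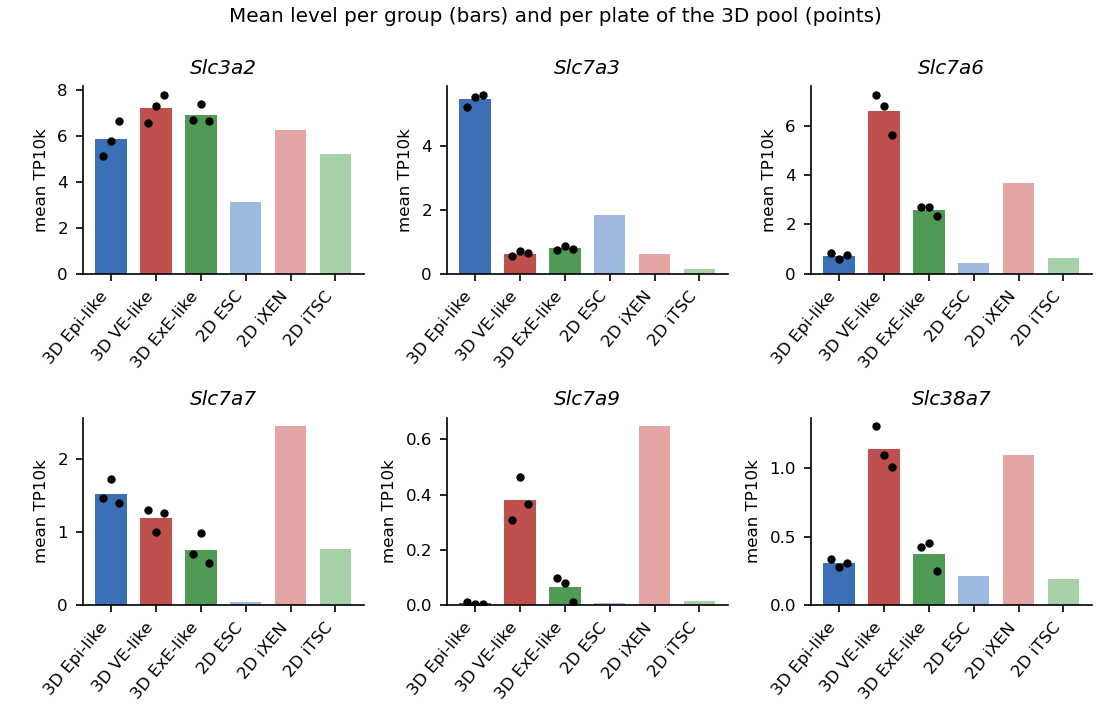
Mean TP10k (vertical axis, from 0) of 6 members in the 3D blocks and the 2D cultures, with the plates of the 3D pool as points. Slc3a2 differs little between the 3D blocks, Slc7a3 is highest in the Epi-like block, and Slc7a6, Slc7a9 and Slc38a7 are highest in the VE-like block in 3D and in iXEN cells in 2D.

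The sum of the light chains that can pair with Slc3a2 was compared with Slc3a2 itself, a set chosen after the values had been seen. It was 1.20 times the Slc3a2 level in the VE-like block (plates 1.42, 1.18 and 0.998) and 1.11 times in iXEN cells. In the Epi-like block it was 0.473 times (0.565, 0.485 and 0.395), in the ExE-like block 0.597 times (0.627, 0.603 and 0.559), in ESCs 0.272 and in iTSCs 0.445. These are ratios of RNA levels per length, and protein was not measured.

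Cell by cell, Slc7a6 was the highest of these light chains in 90.8% of VE-like cells (exact interval 87.05 to 93.7), 67.1% of ExE-like cells and 68.8% of iXEN cells. Epi-like cells were divided, with Slc7a7 highest in 48.1%, Slc7a6 in 23.6% and Slc7a5 in 22.6%. ESCs were divided differently, with Slc7a6 in 54.9%, Slc7a5 in 40.8% and Slc7a7 in 3.52%. Among iTSCs Slc7a5 was highest in 43.3%, Slc7a7 in 31.2% and Slc7a6 in 24.1%.

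**Figure D3:**
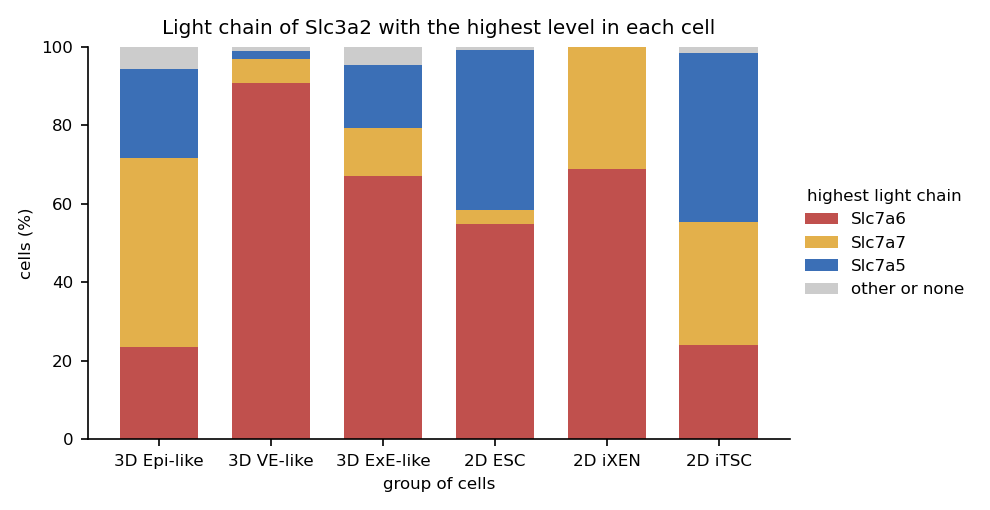
Share of cells (percent, vertical axis) in which each light chain of Slc3a2 has the highest level, by group. Slc7a6 fills 90.8% of the VE-like bar, and Slc7a7 takes 48.1% of the Epi-like bar against 3.52% of the ESC bar.

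Among the cationic transporters, Slc7a3 (CAT3) marked the Epi-like block with a mean of 5.46 TP10k and 5.23, 5.54 and 5.61 on the plates. The VE-like block had 0.634 TP10k (0.545, 0.705 and 0.658) and the ExE-like block 0.796 (0.739, 0.871 and 0.779). It was above 0 in 95.2% of Epi-like cells, with quartiles of 2.83 and 7.51 TP10k, and the VE-like median was 0. In 2D the ESCs were also highest, at 1.84 TP10k, ahead of iXEN cells at 0.637 and iTSCs at 0.156. Slc7a3 alone made up 25.7% of the summed member level in the Epi-like block.

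Slc7a1 (CAT1), the widespread cationic transporter, ran the other way, with 0.509 TP10k in the VE-like block (plates 0.531, 0.508 and 0.486), 0.140 in the Epi-like block (0.190, 0.121 and 0.112) and 0.219 in the ExE-like block (0.220, 0.209 and 0.229). It was 0.479 TP10k in iXEN cells, 0.219 in ESCs and 0.207 in iTSCs. Counted cell by cell, again in a set chosen after the values had been seen, Slc7a3 was the highest cationic member in 95.2% of Epi-like cells and 94.4% of ESCs, and Slc7a1 in 56.8% of VE-like cells, 50.4% of iXEN cells and 63.8% of iTSCs. In the ExE-like block Slc7a3 was highest in 47.03% of cells and Slc7a1 in 27.2%, and no cationic member was found in 16.4%. Slc7a4 was sparse, with 0.133 TP10k in the ExE-like block, where 46 cells (13.03%) were above 0, and at most 0.0506 TP10k in the other groups. It shares 13.3% of its exonic bases with P2rx6 on the opposite strand.

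In the Slc1a family, Slc1a5 (ASCT2), an exchanger of glutamine, serine and alanine, was the most abundant in every group. It had 2.20 TP10k in the Epi-like block (plates 2.42, 2.02 and 2.18), 1.30 in the VE-like block (1.36, 1.28 and 1.26) and 1.24 in the ExE-like block (1.09, 1.36 and 1.26). The Epi-like plates were above all others but by less than 2-fold, and the 2D means were 1.30, 1.18 and 0.841 TP10k in ESCs, iXEN cells and iTSCs. Slc1a4 (ASCT1) lay between 0.0845 TP10k in ESCs and 0.326 in iXEN cells.

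Slc1a3 (GLAST), a glutamate transporter known from glia, was level in the Epi-like (0.199 TP10k) and VE-like (0.198) blocks and low in the ExE-like block at 0.0216, with 0.0327, 0.0250 and 0.00626 on the plates. In 2D iXEN cells had 0.361 TP10k, iTSCs 0.154 and ESCs 0.0650. Slc1a1 (EAAC1), the neuronal and epithelial glutamate transporter, was found in ESCs at 0.153 TP10k and in 71.1% of cells, and in the other 5 groups at 0.0127 TP10k or less. It shares 31.9% of its exonic bases with 4430402I18Rik on the opposite strand.

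Of the Slc38a family, Slc38a2 (SNAT2), which takes up small neutral amino acids and is induced when they are scarce, had the highest mean of the family in each group but the iTSCs, where Slc38a6 was at 0.572 TP10k. Its mean was 1.23 TP10k in the Epi-like block (1.19, 1.09 and 1.42 on the plates), 1.57 in the VE-like block (1.42, 1.33 and 2.02) and 0.798 in the ExE-like block (0.750, 0.790 and 0.856). In 2D it was 0.696, 1.29 and 0.400 TP10k in ESCs, iXEN cells and iTSCs. The Epi-like and VE-like plates overlapped, and the ExE-like plates were below both.

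Slc38a7 (SNAT7), a lysosomal glutamine exporter, was at 1.14 TP10k in the VE-like block (1.30, 1.09 and 1.002), 0.305 in the Epi-like block (0.337, 0.276 and 0.304) and 0.376 in the ExE-like block (0.421, 0.452 and 0.249). Its 2D means were 1.09 TP10k in iXEN cells, 0.215 in ESCs and 0.194 in iTSCs. Slc38a1 had 0.341, 0.698 and 0.379 TP10k in the 3D blocks in the order Epi-like, VE-like and ExE-like, and Slc38a6 had 0.292, 0.611 and 0.403. Slc38a5 (SNAT5) was found in the VE-like block at 0.106 TP10k, in 49 cells (15.6%), and at 0.00906 and 0.00478 TP10k in the Epi-like and ExE-like blocks. Slc38a3 was the reverse, at 0.0666 TP10k in the Epi-like block, in 28 cells (8.92%), and at 0.00508 in the VE-like block. Slc38a10 was at 0.388 to 0.431 TP10k in the 3D blocks and 0.360 to 0.410 in 2D. It shares 5.72% of its exonic bases with Gm11769 on the opposite strand.

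In the remaining families, Slc43a3, a nucleobase carrier grouped with the LAT3 and LAT4 amino acid carriers, was at 0.327 TP10k in the VE-like block (0.271, 0.381 and 0.330), 0.0234 in the Epi-like block and 0.0583 in the ExE-like block. Slc43a2 (LAT4) was at 0.0653, 0.181 and 0.147 TP10k in the same order of lineages with Epi-like first, and at 0.406 in iXEN cells. It shares 9.18% of its exonic bases with Gm45606 on the opposite strand. Slc36a1 (PAT1), a proton-coupled exporter of the lysosome, was at 0.104 TP10k in the VE-like block against 0.0200 and 0.0280 in the Epi-like and ExE-like blocks. Slc6a6, the taurine transporter, was at 0.799, 1.15 and 0.945 TP10k in the Epi-like, VE-like and ExE-like blocks, and the ExE-like plates overlapped those of both other blocks. Of its exonic bases 1.38% are shared with Gm44981 on the opposite strand. Slc6a8, the creatine transporter, had 0.300 TP10k in the Epi-like block, 0.913 in the VE-like block and 0.740 in the ExE-like block, and between 0.758 and 0.995 TP10k in 2D. Slc6a15, a carrier of branched-chain amino acids and proline, was at 0.107 and 0.137 TP10k in the Epi-like and VE-like blocks and 0.0210 in the ExE-like block.

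A gene was called different between 2 groups when its mean was at least 0.05 TP10k in either, the log2 ratio of means after adding 0.01 TP10k was at least 1 in size, and the ratio had the same sign with plates 3, 4 and 5 taken singly. The 3D comparisons ask how the lineages of the embryoid differ, and they share blocks with each other. Between the Epi-like and VE-like blocks 28 members were tested. Of them 2 (7.14%) were called higher in the Epi-like block, where 16.1% of all 10470 genes tested were, and 12 (42.9%) in the VE-like block, where 15% were. The median log2 ratio was -0.58 over the members and 0.08 over all genes.

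Slc7a3 was 8.62-fold higher in the Epi-like block (log2 3.09, 2.96 to 3.24 over the plates), and the other member called in that direction was Slc38a3 at a log2 ratio of 2.35. The largest ratio towards the VE-like block was that of Slc7a9, at -4.48 (-4.94 to -3.90), followed by Slc43a3 at -3.33 and Slc7a6 at -3.15. Slc7a6 was 8.99-fold higher in the VE-like block. That order rests on the 0.01 TP10k added, since with 0.1 TP10k Slc7a6 was at -3.01, Slc7a9 at -2.16 and Slc43a3 at -1.79. Slc38a5 (-2.60), Slc7a8 (-2.31), Slc36a1 (-1.93), Slc38a7 (-1.86), Slc7a1 (-1.79), Slc6a8 (-1.58), Slc43a2 (-1.34), Slc38a6 (-1.04) and Slc38a1 (-1.01) completed the 12. By role, 3 of 5 tested light chains, 4 of 8 Slc38a, 2 of 3 Slc43a and none of 3 Slc1a members were called higher in the VE-like block. Without plate 4, 3 calls were lost, Slc38a1 at -0.97, Slc38a6 at -0.98 and Slc38a3, whose ratio was 1.63 but which fell below the minimum level.

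Between the Epi-like and ExE-like blocks 25 members were tested. Of these 5 (20%) were called higher in the Epi-like block, against 8.77% of all genes tested, and 6 (24%) in the ExE-like block, against 14.7%. The median log2 ratio was -0.24 over the members and -0.09 over all genes. Slc7a3 (log2 ratio 2.76), Slc1a3 (2.73), Slc6a15 (1.91), Slc38a3 (1.14) and Slc7a7 (1.01) were higher in the Epi-like block. Slc7a9 (-2.13), Slc7a6 (-1.81), Slc6a8 (-1.28), Slc7a4 (-1.24), Slc43a2 (-1.06) and Slc43a3 (-1.03) were higher in the ExE-like block. When only cells with the markers of their own block highest were used, Slc7a9 (-0.51), Slc43a2 (-0.57) and Slc43a3 (-0.42) were no longer called, whereas Slc7a3 (2.65) and Slc7a6 (-1.82) were. Single plates decided several of these calls. The ratio of Slc7a7 was 0.98 without plate 3 and 0.92 without plate 5, and that of Slc7a9 was -1.91 without plate 3, with neither group at the minimum level. Without plate 4 Slc38a3 was at 0.89 and Slc43a2 at -0.53, and without plate 5 Slc7a4 was at -0.97 and Slc43a3 at -0.30. The call of Slc7a4 was also lost with at least 4000 genes per cell (-0.78) and in cells with 5000 to 8000 genes (-0.28).

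Between the VE-like and ExE-like blocks 27 members were tested, and 9 (33.3%) were called higher in the VE-like block, against 8.08% of all genes tested. Only Slc7a4 (log2 ratio -1.83) was called higher in the ExE-like block, where 14.6% of all genes were. Over the members the median log2 ratio was 0.59, and over all genes -0.15. Slc38a5 (2.97), Slc1a3 (2.72), Slc7a9 (2.36), Slc43a3 (2.30) and Slc6a15 (2.24) had the largest ratios. Slc36a1 (1.59), Slc38a7 (1.57), Slc7a6 (1.34, 1.25 to 1.41 over the plates) and Slc7a1 (1.18) made up the rest. Restricted to cells with the own markers highest, Slc7a9 stood at 4.00, Slc43a3 at 2.93 and Slc7a6 at 1.34, and none of the 10 calls was lost there or without any one plate.

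**Figure D4:**
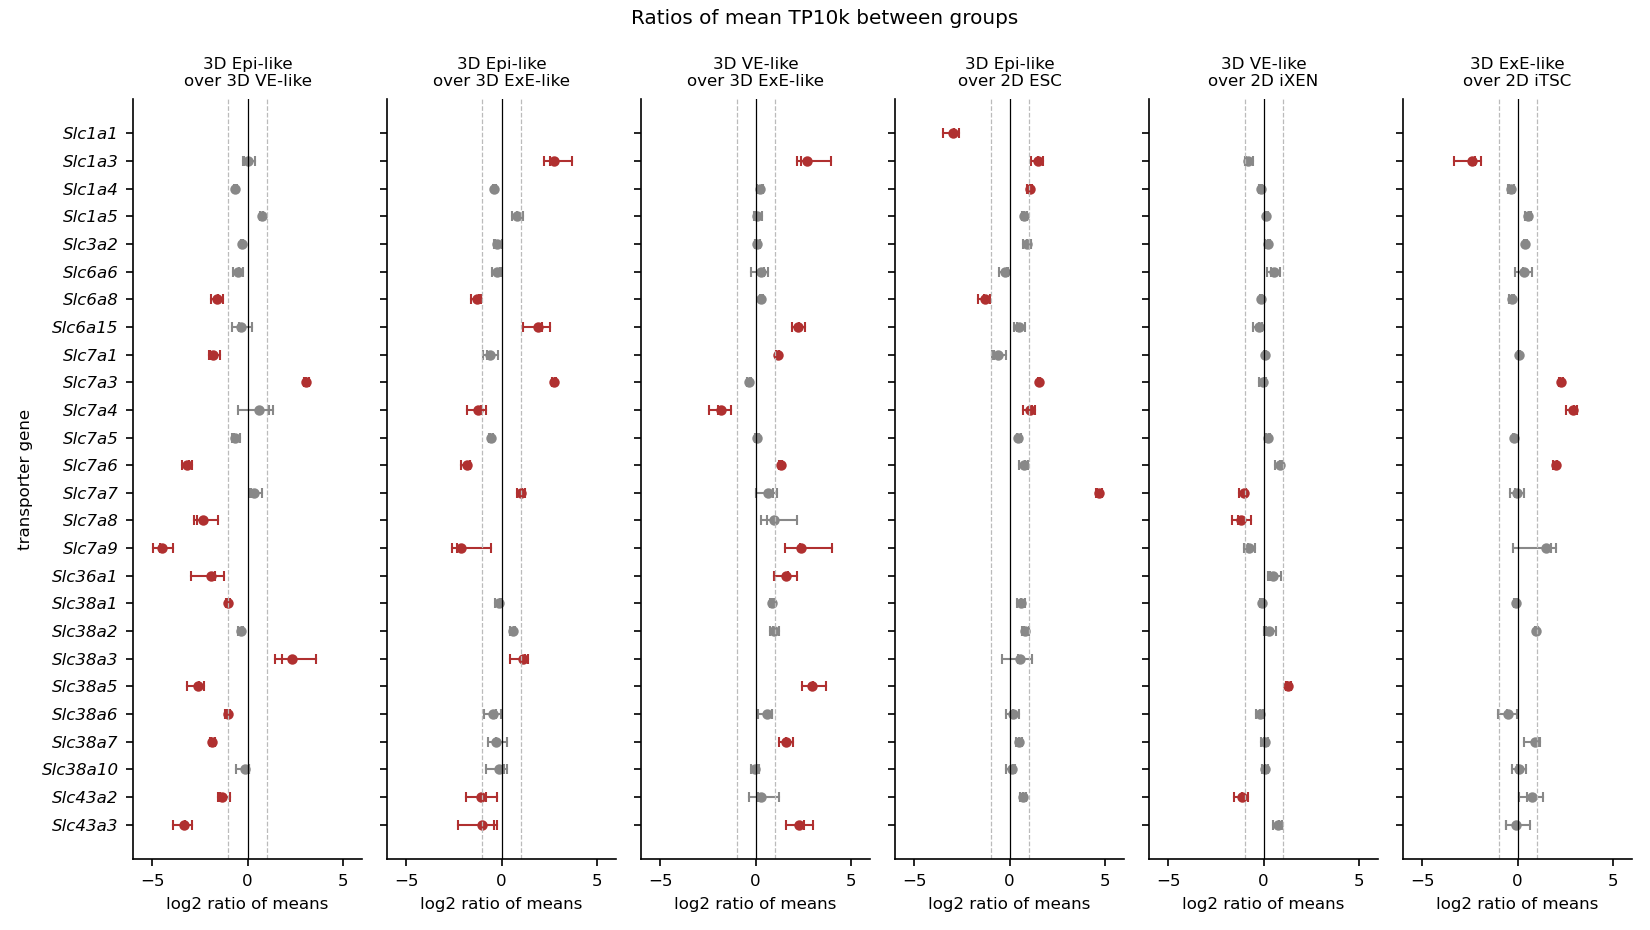
Log2 ratio of mean TP10k (horizontal axis) of the named members in the 6 comparisons, with 0.01 TP10k added to each mean. Points are all plates together, ticks and lines the single 3D plates and their range, red marks called members, dashed lines mark 1 and -1, and members below 0.05 TP10k in both groups are not drawn. Most red points lie left of 0 in the first panel and right of 0 in the third.

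The comparisons of 3D with 2D ask how cells of one lineage differ between the embryoid and monoculture. Culture form, medium, plate and the number of genes found per cell all changed between them, as did doxycycline between the Epi-like block and the ESCs, and these cannot be told apart. The ESC medium had added essential and nonessential amino acids, the embryoid medium added nonessential ones, and the iTSC and iXEN media, based on RPMI, neither. In the Epi-like block 5 of 24 tested members (20.8%) were called higher than in ESCs, against 10% of all genes tested, and 2 were called higher in ESCs, against 6.63%. The members' median log2 ratio was 0.63, and that of all genes 0.12.

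Slc7a7 had the largest ratio of that comparison, 4.67 (4.54 to 4.84), and was 30.2-fold higher in the Epi-like block. Slc7a3 (1.56), Slc1a3 (1.48), Slc7a4 (1.09) and Slc1a4 (1.05) were also higher there. Slc1a1 (-2.99) and Slc6a8 (-1.31) were higher in ESCs. Without plate 3 Slc1a4 was at 0.99 and Slc7a4 at 0.95, and without plate 4 Slc7a4, at 1.05, was below the minimum level. Between 5000 and 8000 genes, where only 6 ESCs were left, Slc7a3 was at 1.11 and Slc7a7 at 7.38, with Slc7a7 at 0 in all 6 ESCs.

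Between the VE-like block and iXEN cells 1 of 26 tested members was called higher in the VE-like block, against 3.38% of all genes, and 3 in iXEN cells, against 6.01%. Slc38a5 was the first, at a log2 ratio of 1.28, and Slc7a8 (-1.19), Slc43a2 (-1.13) and Slc7a7 (-1.04) were the others. Slc7a7 was at -0.92 without plate 4 and Slc43a2 at -0.97 without plate 5. Slc38a5, Slc7a8 and Slc43a2 were also among the 12 members called higher in the VE-like than in the Epi-like block. The other 9 were not called here, with ratios such as 0.06 for Slc38a7, 0.84 for Slc7a6 and -0.75 for Slc7a9. The share of members called was close to that of all genes in the first direction, 3.85%, and 11.5% in the other, which is 3 genes.

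Between the ExE-like block and iTSCs 3 of 24 tested members were called higher in the ExE-like block, against 10.8% of all genes, and 2 in iTSCs, against 8.45%, shares of 12.5% and 8.33% that lie close to those of all genes. Slc7a4 (log2 ratio 2.88), Slc7a3 (2.28) and Slc7a6 (2.01) were higher in the ExE-like block, and Slc1a3 (-2.38) in iTSCs. In the cells with ExE markers highest the ratios were 3.03 for Slc7a4, 2.39 for Slc7a3 and 2.02 for Slc7a6, and -2.79 for Slc1a3.

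Genes that act around these transporters were counted by the same rule. The share of all genes called in the same comparison is given beside each count. Of the amino acid response list, 24 genes that include targets of the transcription factor ATF4, 7 of 21 tested were called higher in the Epi-like block than in ESCs (10% of all genes) and none lower (6.63%), with Nupr1 (log2 ratio 1.89), Stc2 (1.64), Ddit3 (1.62) and Ddit4 (1.46) the largest. In the ExE-like block 4 of 23 were higher than in iTSCs (10.8% of all genes) and none lower (8.45%), led by Nupr1, a stress-induced chromatin protein, at 14.2 against 1.30 TP10k (3.44) and Atf5 (2.59). VE-like cells had 3 of 22 higher than iXEN cells (3.38% of all genes), Nupr1 (2.53), Stc2 (1.68) and Atf5 (1.34), and 1 lower (6.01%), Cth (-1.10). Between the Epi-like and VE-like blocks the list split, with 4 of 23 higher in the Epi-like and 3 in the VE-like block, close to the 16.1% and 15% of all genes. Cth, which makes cysteine, was at 2.24 against 0.102 TP10k (4.32), and Atf3 at 0.00659 against 0.354 (-4.46). In the comparisons with the ExE-like block, 2 of 23 were higher and 4 lower in the Epi-like block (8.77% and 14.7% of all genes), and 2 were higher and 5 lower in the VE-like block (8.08% and 14.6%), where Nupr1 was at 1.32 against 14.2 TP10k (-3.42).

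Of 17 genes of amino acid sensing by mTORC1, 1 was called higher in the Epi-like and 1 in the VE-like block. Of all genes 16.1% and 15% were. Against the ExE-like block 1 of 17 was higher and 1 lower in the Epi-like block (8.77% and 14.7% of all genes). In the VE-like block 0 of 16 were higher and 1 lower than in the ExE-like block (8.08% and 14.6%). ExE-like cells had 2 of 16 higher than iTSCs and 0 lower (10.8% and 8.45%). Rragd, a Rag GTPase, was at 0.794 TP10k in the ExE-like block against 0.219 in the Epi-like block (log2 ratio -1.81), 0.196 in the VE-like block (-1.97) and 0.109 in iTSCs (2.76). Rragb was at 0.0797 TP10k in the Epi-like block and 0.000581 in the VE-like block (3.08), while Rragc was higher in the VE-like block (-1.09). Epi-like cells had 3 of 17 higher than ESCs (10% of all genes), Rragb (1.34), Sesn3 (1.31) and Flcn (1.14), and none lower (6.63%). None of 16 tested was called between VE-like and iXEN cells, where 3.38% and 6.01% of all genes were.

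Of 25 genes of amino acid metabolism, 5 of 20 tested were higher in the Epi-like than in the VE-like block (16.1% of all genes) and 1 was lower (15%). Glul, glutamine synthetase, was at 5.995 TP10k in the VE-like block, 1.36 in the Epi-like block and 0.984 in the ExE-like block, with log2 ratios of -2.13 for Epi-like over VE-like and 2.60 for VE-like over ExE-like. Tdh, threonine dehydrogenase, on which mouse embryonic stem cells rely, was at 6.29 TP10k in the Epi-like and 4.35 in the VE-like block and 0.262 in the ExE-like block, where the ratio of the Epi-like to the ExE-like block was 4.53. Bcat1, a branched-chain transaminase, was at 2.32 TP10k in the Epi-like and 0.636 in the VE-like block (1.85). Against the ExE-like block 1 of 20 was higher and 0 lower in the Epi-like block (8.77% and 14.7% of all genes). In the VE-like block 4 of 20 were higher and 2 lower than in the ExE-like block (8.08% and 14.6%). Ass1, argininosuccinate synthase, was called higher in each 2D culture, at 8.24 TP10k in ESCs against 2.66 in the Epi-like block, 3.77 in iXEN cells against 1.53 in the VE-like block and 8.71 in iTSCs against 2.58 in the ExE-like block. Epi-like cells had 2 of 21 higher and 1 lower than ESCs (10% and 6.63% of all genes). VE-like cells had 1 of 21 higher and 1 lower than iXEN cells (3.38% and 6.01%). ExE-like cells had 1 of 21 higher and 3 lower than iTSCs (10.8% and 8.45%).

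Among 10 amino acid carriers of other families, Slc25a22, a mitochondrial glutamate carrier, was at 1.26 TP10k in the VE-like block against 0.315 in the Epi-like (log2 ratio -1.96) and 0.472 in the ExE-like block (1.39). Slc25a44, a mitochondrial carrier of branched-chain amino acids, was also lower in the Epi-like than in the VE-like block, at 0.0827 against 0.297 TP10k (-1.73). Of 8 tested there, 2 were called higher in the VE-like block (15% of all genes) and 0 lower (16.1%). Between the VE-like and ExE-like blocks 1 of 9 was called each way (8.08% and 14.6%). In the Epi-like block 0 of 9 were higher and 2 lower than in the ExE-like block (8.77% and 14.7%). Epi-like cells had 1 of 8 higher and 0 lower than ESCs (10% and 6.63%). ExE-like cells had 1 of 9 higher and 0 lower than iTSCs (10.8% and 8.45%). None of 8 tested was called between VE-like and iXEN cells, where 3.38% and 6.01% of all genes were.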

How the data were processed

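Single cells were sorted into 384-well plates and sequenced with SMART-seq2. The authors pseudoaligned the reads with kallisto to GRCm38 with the Gencode vM16 annotation, left out mitochondrial, ribosomal and pseudogene entries, and summed transcripts to genes. The deposited values are TPM per gene and cell, in which read depth is unknown, and the exact (Clopper-Pearson) 95% intervals cover the counting of cells only. bcl2fastq 2.20 is named in the submitters' processing notes.

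From these values each cell was scaled to a sum of 10000 (TP10k), cells with fewer than 2500 genes above 0 were left out, and group means were taken over all cells, zeros included. All columns were mapped to a sample. No doublet caller was run, and 0 kept cells had identical values. Every gene was carried through the call rule and background, although only members and listed genes are printed. Fold changes are plain ratios of means, while log2 ratios have 0.01 TP10k added. Members with a mean of at least 0.2 TP10k in 1 of the 6 groups or called in 1 of the 6 comparisons were named with values, as were at most 4 called genes of a pathway list per comparison, and the others by their range. The members and lists were chosen with earlier results of these data known. Of the 22 genes of the mTORC1 list 17 were found in the table by symbol, and of the 11 other carriers 10. Promoter windows are those of RefSeq GRCm38.p6, and gene coordinates and exon overlaps those of Gencode vM21, in which 59 of 59 members were found by symbol. One gene that matches the family pattern was left out, and another is counted among the members but not reported here. The 13 alternatives are given in the closing section. The call rule was tried on a random split of the ExE-like cells, with some genes well above the minimum level raised by more than 2-fold. It was not tried at its own minimum of 2-fold. The outcome of the trial is not given here, and nothing is drawn from it. Python 3.11.15, numpy 2.4.6, pandas 2.3.3 and scipy 1.17.1 were used.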

Additional observations from a re-analysis of the deposited data

Results flagged for a closer look

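For 2 members the 3D against 2D ratio was called in opposite directions in 2 lineages. For Slc7a7 the log2 ratio of the Epi-like block over ESCs was 4.67 and that of the VE-like block over iXEN cells -1.04, a difference of 5.70. For Slc1a3 the ratio of the Epi-like block over ESCs was 1.48 and that of the ExE-like block over iTSCs -2.38, a difference of 3.86. With 1 sample in each condition, neither difference was tested. The Slc7a7 call against iXEN cells was lost without plate 4 (-0.92), with a pseudocount of 0.1 TP10k and with a fold of at least 4. The Slc1a3 call against ESCs was lost with that pseudocount, that fold and a minimum level of 0.2 TP10k. That minimum level also removed the Slc1a3 call against iTSCs.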

How the results depend on the processing

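Of the 51 calls of a member in a comparison, 51 were kept with genes counted above 1 TPM and with no minimum level, 49 with TPM as deposited, 48 with cells whose own block markers were highest, 47 with at least 4000 genes per cell, 44 without the highest 2% of cells and 43 in cells with 5000 to 8000 genes. They fell to 25 with a minimum level of 0.2 TP10k, 24 with a pseudocount of 0.1 TP10k and 21 with a fold of at least 4. With the minimum level of 0.2 TP10k the calls numbered 9 of 14 between the Epi-like and VE-like blocks, 4 of 11 between the Epi-like and ExE-like, 5 of 10 between the VE-like and ExE-like, 3 of 7 against ESCs, 2 of 4 against iXEN cells and 2 of 5 against iTSCs. Members tested at that level were 17, 15, 17, 14, 19 and 15 in the same order. Of all genes tested there, 13.1%, 6.87%, 7.96%, 7.65%, 2.65% and 9.11% were called higher in the first group, in that order. In the second group 15.5%, 12.6%, 11.2%, 5.14%, 4.40% and 6.64% were. With the pseudocount of 0.1 TP10k the calls numbered 7, 4, 5, 4 and 0 in the first 5 of these comparisons, and with a fold of at least 4 they numbered 7, 3, 5, 2 and 0. The shares of all genes also fell. Between the Epi-like and VE-like blocks they were 7.90% and 8.67% with that pseudocount, and 6.46% and 5.38% with that fold. In the next 4 comparisons they were 4.00% and 6.86%, 4.38% and 6.48%, 3.27% and 2.74%, and 1.18% and 2.24% with that pseudocount. With that fold they were 3.30% and 5.03%, 2.71% and 5.61%, 2.33% and 1.96%, and 0.547% and 1.54%. With at least 4000 genes the calls numbered 7 between the Epi-like and ExE-like blocks (8.13% and 14.7% of all genes) and 8 against iTSCs (10.1% and 8.10%). In cells with 5000 to 8000 genes the calls numbered 15 against ESCs, of which 6 cells were left, and there Slc7a4 turned from 1.09 to -0.19. All genes were called more often there too, 21.6% higher in the Epi-like block and 13.9% in ESCs. With all kept cells these shares were 10% and 6.63%. Leaving out plates 3, 4 and 5 in turn gave 11 to 15, 9 to 9, 10 to 13, 5 to 8, 3 to 5 and 5 to 7 calls in the 6 comparisons. No call of Slc7a3, Slc7a6, Slc7a9 or Slc43a3 between the Epi-like and VE-like blocks was lost under any of the 13 alternatives. The cause of the changes was not tested. No paired analysis was possible because the results come from no test, with 1 sample in each condition.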
